A study of Mus musculus with 12 samples.

Results

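Chemokine ligands and chemokine receptors were examined in the terminal ileum of young mice. The members were all genes with values whose symbols begin with Ccl, Ccr, Cxcl, Cxcr, Cx3c, Xcl or Xcr, except Ccl5, Ccl19, Ccl20, Ccr6, Ccr7, Cxcl13, Cxcr2 and Cx3cr1. This gave 37 of the 556 genes with values, of which 36 are described and counted here, 22 ligands and 14 receptors or receptor-like genes. The study compared early antibiotic exposure with none, in mice with and without a microbiota. All 12 animals were male C57BL/6 mice, taken at week 7 per the labels and at postnatal day 50 per the methods, with 3 mice in each of 4 groups. SPF control mice were colonized under specific pathogen-free conditions and drank water without drug. SPF PAT mice were colonized mice given a pulsed antibiotic treatment (PAT), in which tylosin, a macrolide, was put in the drinking water for 5 days from postnatal day 5, while the pups were nursing, so that it reached them through the dam. GF control and GF PAT mice were germ-free mice with autoclaved water alone or with tylosin in it. By the methods, the SPF litters were bred from purchased mice, whereas the germ-free mice were bred at the authors' institution. Colony of origin can therefore not be told apart from colonization where SPF and GF mice are compared. Mouse numbers are those of the labels. The labels do not say which mice were littermates.

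RNA of the whole tissue was measured on the NanoString nCounter mouse immunology panel, in which colour-coded probes are counted without amplification. The totals recovered from the deposited values were 806043 to 923395 counts per mouse in SPF control mice and 600308 to 681370 in the other 9 mice. Replicates all differed by more than counting error, with a chi-square per degree of freedom of at least 14.5 for each pair within a group. All 5 measured epithelial markers had counts in every mouse, with summed normalized counts from 122110 to 196135. In whole tissue, fewer cells of a type and less RNA per cell cannot be told apart. Levels are given below as normalized counts in each mouse, in ascending order of mouse number, or as log2 normalized counts. Differences are on the log2 scale, ± SE, with adjusted p from limma over all 556 genes. Because probes differ in efficiency, levels were compared between mice and never between genes.

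Chemokines are small secreted proteins that guide leukocytes along gradients through G protein-coupled receptors. In the small intestine, CCL25 from epithelial cells draws T cells and IgA plasma cells that carry CCR9, and the interferon-inducible ligands CXCL9, CXCL10 and CXCL11 draw activated T and NK cells through CXCR3. Other ligands recruit monocytes, eosinophils and neutrophils, or hold cells in place in lymphoid follicles and in the epithelium.

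The 250 bases before the starts of Cxcl9 and Cxcl10 are shown because both neighbouring ligands differed between SPF control and GF control mice. They are RefSeq sequences of GRCm38.p6 on the minus strand of chromosome 5, Cxcl9 at chr5:92328080-92328329 and Cxcl10 at chr5:92348890-92349139, written 5′ to 3′. Capitals mark an interferon-stimulated response element core (GAAANNGAAA), whose first base lies 213 bases before the Cxcl10 start, and an NF-kappaB site (GGGANNTTCC), whose first base lies 159 bases before it.
Cxcl9: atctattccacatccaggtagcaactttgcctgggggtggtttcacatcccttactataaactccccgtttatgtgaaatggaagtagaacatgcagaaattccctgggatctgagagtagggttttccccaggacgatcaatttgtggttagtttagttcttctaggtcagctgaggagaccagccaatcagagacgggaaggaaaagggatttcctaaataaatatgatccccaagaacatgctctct
Cxcl10: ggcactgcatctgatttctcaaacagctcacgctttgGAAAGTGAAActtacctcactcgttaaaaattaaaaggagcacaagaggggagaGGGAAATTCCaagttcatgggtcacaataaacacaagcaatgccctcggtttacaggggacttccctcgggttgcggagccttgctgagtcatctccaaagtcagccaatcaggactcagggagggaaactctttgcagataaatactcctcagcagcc

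Both strands were searched, also for the interferon-gamma activated site (TTCNNNGAA), and the motifs were chosen with the results known. The Cxcl9 window held none of these letter patterns. Among 27025 genes with a promoter, 3.46% held the response element core, 8.13% the interferon-gamma activated site and 1.36% the NF-kappaB site. Of the 27 members with a promoter in the table, 1 held the first (Cxcl10), 0 the second and 4 the third (Ccr3, Cxcl1, Cxcl3 and Cxcl10). A match describes letters only. In the order of genes along chromosome 5, Cxcl9 and Cxcl10 are separated by Art3, and Cxcl11 follows Cxcl10. Cxcl11 is annotated there as a transcribed pseudogene, and C57BL/6 mice are known to lack a functional CXCL11 protein.

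SPF control and GF control mice differ in the presence of a microbiota and in colony of origin. Between them 18 of the 36 members differed, of which 12 had higher and 6 had lower levels in the SPF control group. Over all 556 genes 42.1% were called, 19.4% as higher and 22.7% as lower. The groups did not overlap for 21 members, and for 52.2% of all genes. The ligands were split, with 6 higher and 5 lower, whereas 6 receptors were higher and 1 was lower. The median difference of the members was 0.41, against 0.082 for all genes. With every mouse centred on its median gene, the median difference of all genes became -0.36, that of the members -0.034, and the calls 6 higher and 6 lower. With quantile normalization 5 members were higher and 6 lower. Under either scaling the receptors Ccr10, Ccr2 and Cxcr3 and the ligands Ccl2 and Ccl4 lost the call, and the receptor Ccrl2 reversed. The receptors Ccr9 and Cxcr6 stayed higher and Ccrl1 stayed lower, so the split between ligands and receptors depended on the scaling.

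Between SPF PAT and SPF control mice, which addresses the effect of the early tylosin course in colonized animals, 12 members differed, 5 higher and 7 lower in SPF PAT mice. Over all genes 26.3% were called, 14.0% as higher and 12.2% as lower. The groups did not overlap for 18 members and for 41% of all genes. Of the 12, 10 were ligands, 5 in each direction, and 2 were receptors, both lower. The median difference was -0.30 over the members and -0.017 over all genes. With median centring these became 0.057 and 0.34, with 6 members higher and 4 lower, and quantile normalization gave 6 higher and 5 lower. The SPF control mice enter both of these comparisons, so that their directions are not independent of each other, and the values of each are given side by side.

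**Figure D1:**
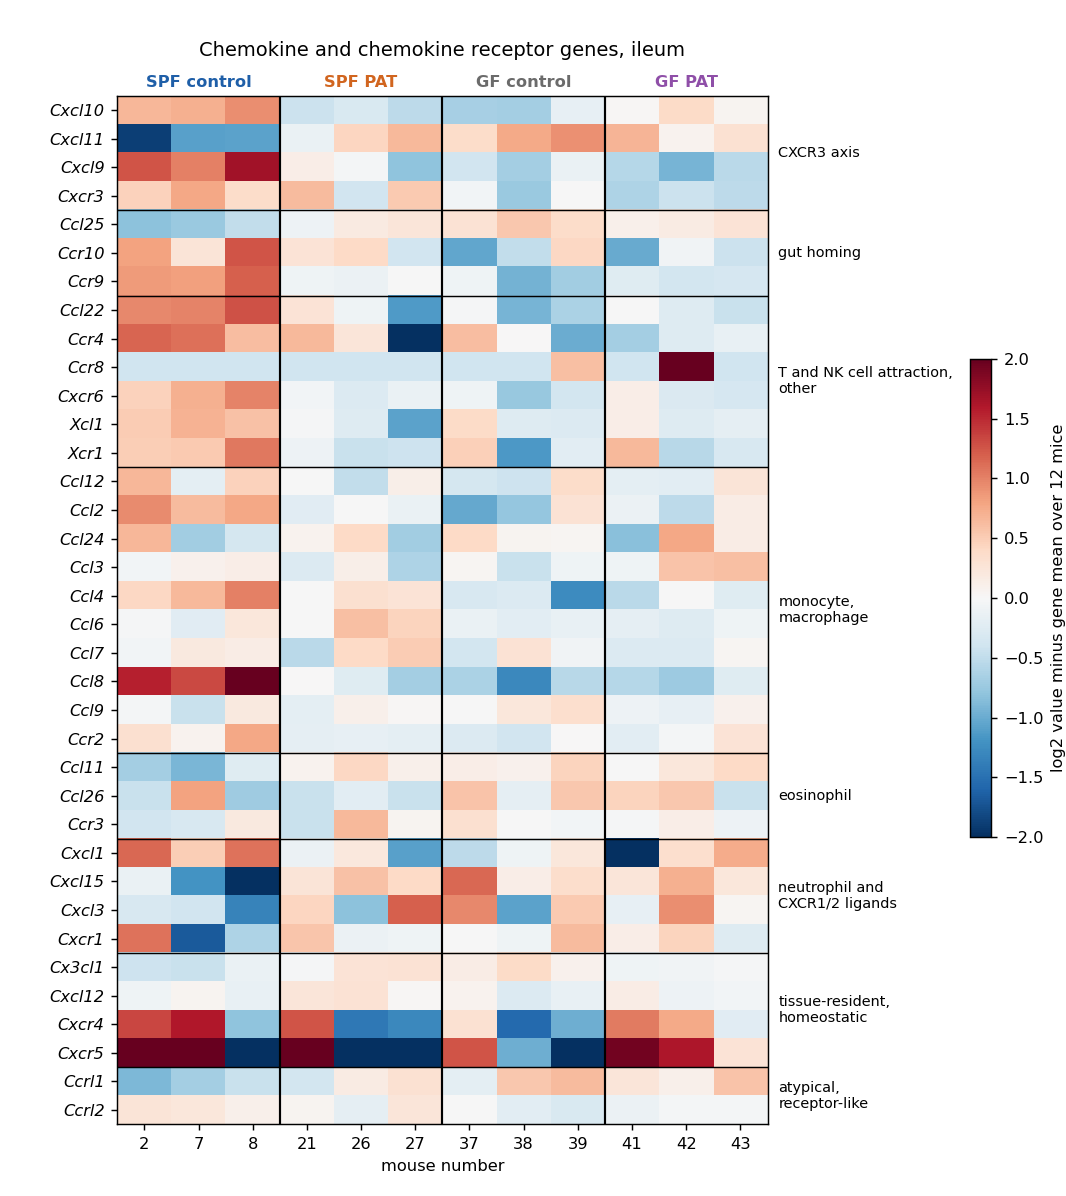
Log2 value of each of the 36 members (rows, by role) in each of the 12 mice (columns, by group), minus the gene's mean over all mice; colours end at 2 log2 units either way. Ccl8 and Cxcl9 are red and Cxcl11 is blue in the 3 SPF control mice, whereas Cxcr5 is split within groups.

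The ligands of CXCR3 did not move together. Cxcl9, which draws activated T cells, had normalized counts of 409, 344 and 548 in SPF control mice, 187, 166 and 97.3 in SPF PAT mice, 131, 106 and 156 in GF control mice and 115, 89.5 and 118 in GF PAT mice. The SPF control mice were above all others. Cxcl9 was 3.29-fold higher in SPF control than GF control mice (1.72 ± 0.27, adjusted p = 0.00117), and 2.94-fold lower in SPF PAT than SPF control mice (-1.56 ± 0.27, adjusted p = 0.00468). For Cxcl10, a second interferon-inducible ligand, the counts were 105, 108 and 126 in SPF control mice, 48.9, 53.1 and 45.6 in SPF PAT mice, 41.7, 40.96 and 58.8 in GF control mice and 67.1, 85.5 and 68.6 in GF PAT mice. Here too the SPF control mice stood alone, but the GF PAT mice lay above the GF control and the SPF PAT mice. The difference was 1.27 ± 0.17, adjusted p = 0.000433 between SPF control and GF control mice, and -1.20 ± 0.17, adjusted p = 0.00179 between SPF PAT and SPF control mice. Both calls ended with quantile normalization (adjusted p = 0.0806 and 0.0595).

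Cxcl11 ran the other way. Its counts were 15.1, 26.4 and 26.6 in SPF control mice, 50.8, 75.5 and 87.7 in SPF PAT mice, 72.1, 93.97 and 106 in GF control mice and 89.5, 58.7 and 68.6 in GF PAT mice. All 9 mice outside the SPF control group were above the 3 within it. Cxcl11 was 4.07-fold lower in SPF control than GF control mice (-2.03 ± 0.29, adjusted p = 0.000737) and 3.16-fold higher in SPF PAT than SPF control mice (1.66 ± 0.29, adjusted p = 0.00456). The receptor Cxcr3 had low counts of 27.7, 34.4 and 25.8 in SPF control mice, 31.03, 15.3 and 28.8 in SPF PAT mice, 19.3, 12.05 and 19.9 in GF control mice and 13.05, 14.9 and 13.9 in GF PAT mice. Cxcr3 was higher in SPF control than GF control mice (0.80 ± 0.28, adjusted p = 0.0446), a call that ended under 16 of the alternatives. Between SPF PAT and SPF control mice its groups overlapped (-0.28 ± 0.28, adjusted p = 0.451).

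The gut-homing pair Ccl25 and Ccr9 differed in opposite directions. Ccl25, the epithelial ligand, had counts of 10253, 10788 and 12805 in SPF control mice, 16819, 20455 and 21305 in SPF PAT mice, 21990.2, 26208 and 23255 in GF control mice and 19454, 20208 and 21684 in GF PAT mice. No SPF control mouse reached the lowest of the other 9. Ccl25 was 2.12-fold lower in SPF control than GF control mice (-1.08 ± 0.14, adjusted p = 0.000336) and 1.73-fold higher in SPF PAT than SPF control mice (0.79 ± 0.14, adjusted p = 0.00445). Its receptor Ccr9, carried by small-intestinal T cells and IgA plasma cells, had counts of 303, 297 and 385 in SPF control mice, 157, 155 and 166 in SPF PAT mice, 159, 86.7 and 104 in GF control mice and 142, 130.3 and 132 in GF PAT mice. Ccr9 was 2.9-fold higher in SPF control than GF control mice (1.53 ± 0.20, adjusted p = 0.000434), and 2.05-fold lower in SPF PAT than SPF control mice (-1.03 ± 0.20, adjusted p = 0.00703). With median centring the latter was no longer called (-0.68, adjusted p = 0.0641). Ccr10, a receptor of IgA plasma cells, had counts of 32.7, 22.4 and 44.9 in SPF control mice, 22.6, 24.8 and 14.4 in SPF PAT mice, 9.15, 13.3 and 24.9 in GF control mice and 9.32, 17.9 and 13.9 in GF PAT mice. It was higher in SPF control than GF control mice (1.15 ± 0.41, adjusted p = 0.0476), with overlapping mice and a call that ended under 13 of the alternatives. The ligand of CCR10 in this tissue, Ccl28, was not analysed here.

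Markers of T cells, epithelium and plasma cells are given beside these genes, and their part in the differences was not tested. The 7 measured T cell markers summed to 1037 to 1696 in SPF control mice, 352 to 1030 in SPF PAT mice, 301 to 745 in GF control mice and 477 to 920 in GF PAT mice. Of the 7, 5 were higher in SPF control than GF control mice and 5 were lower in SPF PAT than SPF control mice. The 5 epithelial markers summed to 123515 to 143833 in SPF control mice, 122110 to 196135 in SPF PAT mice and 143010 to 166498 in GF control mice. Of these, 3 were lower in SPF control than GF control mice and 1 was higher, and 3 were higher in SPF PAT than SPF control mice. The 3 measured plasma cell markers summed to 5821 to 8760 in SPF control mice and 6009 to 7877 in SPF PAT mice. They summed to 6170 to 6891 in GF control mice and 4854 to 5857 in GF PAT mice. Of the 3, 1 was higher in SPF control than GF control mice, and 2 were lower in SPF PAT than SPF control mice, with none the other way. Over all genes 19.4% were called higher and 22.7% lower in SPF control than GF control mice. In SPF PAT against SPF control mice 14.0% of all genes were called higher and 12.2% lower. No marker of these lists was at 0 in any mouse.

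**Figure D2:**
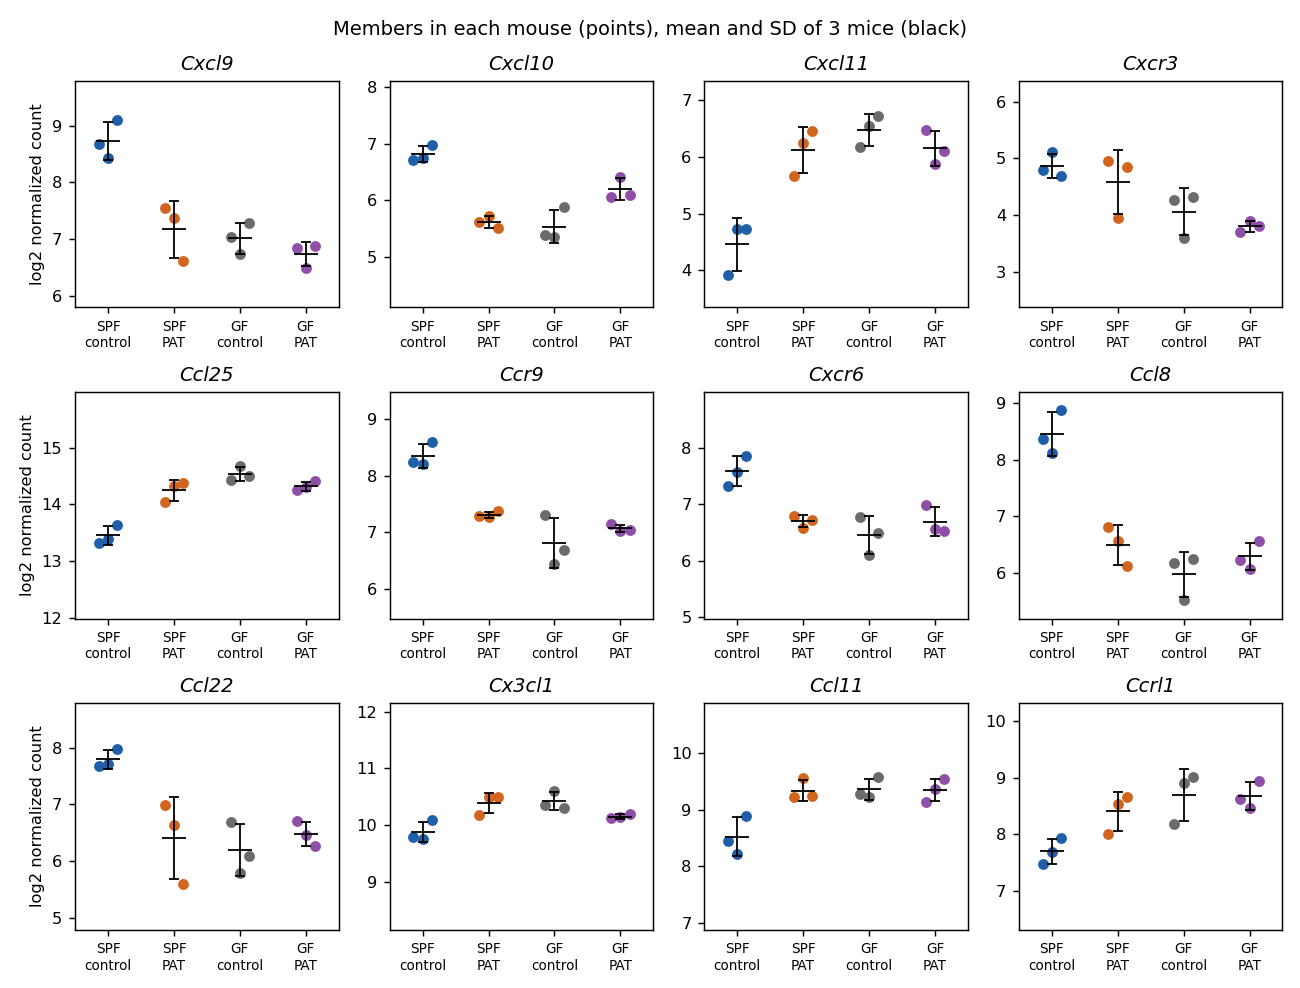
Log2 normalized count (y axis, 4 log2 units in every panel) of 12 members in each mouse, with the mean and SD of 3 mice in black. The SPF control mice lie apart from the other groups for Cxcl11, Ccl25, Ccr9 and Ccl8, above for the last 2 and below for the first 2.

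Of the 6 other members that attract T cells, NK cells and dendritic cells, 3 were called lower and none higher in SPF PAT than SPF control mice. Over all genes 12.2% were called lower and 14.0% higher. Cxcr6, a receptor of tissue-resident T cells and innate lymphoid cells, had counts of 160.2, 189.6 and 231 in SPF control mice, 111, 95.6 and 106 in SPF PAT mice, 109, 68.7 and 89.8 in GF control mice and 127, 94.5 and 92.2 in GF PAT mice. All 3 SPF control mice were above the other 9. The difference was 1.13 ± 0.21, adjusted p = 0.00244 between SPF control and GF control mice and -0.88 ± 0.21, adjusted p = 0.0142 between SPF PAT and SPF control mice, a call lost with Tukey HSD (adjusted p = 0.0794), with median centring (-0.53, adjusted p = 0.11) and with quantile normalization (-0.48, adjusted p = 0.12). Ccl22, made by dendritic cells and macrophages and bound by CCR4, had counts of 206, 209.6 and 253 in SPF control mice, 127, 99.2 and 48.04 in SPF PAT mice, 104, 55.4 and 67.8 in GF control mice and 104, 87.5 and 77.2 in GF PAT mice. Again the SPF control mice were highest, and SPF PAT mouse 27 was the lowest of all. Ccl22 was 3.04-fold higher in SPF control than GF control mice (1.60 ± 0.35, adjusted p = 0.00527) and 2.62-fold lower in SPF PAT than SPF control mice (-1.39 ± 0.35, adjusted p = 0.0182). The latter call ended with Tukey HSD (adjusted p = 0.127), with only the 2 groups (adjusted p = 0.0681) and without SPF control mouse 7 or 2 (-1.43 and -1.45, adjusted p = 0.051 and 0.0518).

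Xcl1, made by NK cells and CD8 T cells, and its receptor Xcr1, the mark of cross-presenting dendritic cells, are a closed pair. The counts of Xcl1 were 96.5, 110.4 and 102 in SPF control mice, 66.8, 56.7 and 32.4 in SPF PAT mice, 88.4, 56.6 and 55.9 in GF control mice and 74.6, 56.7 and 60.1 in GF PAT mice. It was lower in SPF PAT than SPF control mice (-1.05 ± 0.27, adjusted p = 0.0217) without overlap, but lost the call with median centring (-0.70, adjusted p = 0.0513), with Tukey HSD (adjusted p = 0.136), with only the 2 groups (adjusted p = 0.069) and without SPF PAT mouse 27 or SPF control mouse 7 or 2 (-0.74, -0.9998 and -1.10). Between SPF control and GF control mice the difference was 0.65 ± 0.27, adjusted p = 0.0795. Xcr1 ranged from 7.23 to 33.3 over all mice and was called in no comparison, with differences of 0.98 ± 0.42, adjusted p = 0.082 and -1.01 ± 0.42, adjusted p = 0.0959. Ccr4 lay between 1.2 and 13.4, and its comparisons gave no call. Ccr8 was at 0 in 10 mice, below a limit of 3 counts, with 13 counts in GF PAT mouse 42 and 2 in GF control mouse 39. The 3 measured NK cell and innate lymphoid markers summed to 229.9 to 263 in SPF control mice and 133 to 218 in SPF PAT mice.

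Monocyte and macrophage genes were the largest role, with 10 members, of which 4 were higher in SPF control than GF control mice and none lower, against 19.4% and 22.7% of all genes. Ccl8, a ligand made by tissue macrophages, gave the largest called difference of the set. Its counts were 329, 278 and 469 in SPF control mice, 112, 94.4 and 69.7 in SPF PAT mice, 72.1, 45.8 and 75.8 in GF control mice and 75.5, 67.6 and 94.4 in GF PAT mice. The lowest SPF control mouse had 278, and the highest of the other 9 mice had 112. Ccl8 was 5.56-fold higher in SPF control than GF control mice (2.47 ± 0.27, adjusted p = 0.000204) and 3.88-fold lower in SPF PAT than SPF control mice (-1.96 ± 0.27, adjusted p = 0.00179). These calls held under every alternative run. It was the only member of this role that was called between SPF PAT and SPF control mice.

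Ccl2, the main monocyte attractant, had counts of 91.4, 73.6 and 80.7 in SPF control mice, 40.4, 47.2 and 43.2 in SPF PAT mice, 23.4, 27.7 and 57.8 in GF control mice and 43.8, 32.8 and 52.5 in GF PAT mice. The SPF control mice were above all others. The difference from GF control mice was 1.29 ± 0.31, adjusted p = 0.00826 and that of SPF PAT from SPF control mice -0.91 ± 0.31, adjusted p = 0.0543, just outside the threshold. Its receptor Ccr2 had counts of 138, 116 and 188 in SPF control mice, 97.8, 99.2 and 96.1 in SPF PAT mice, 91.5, 84.3 and 112 in GF control mice and 95.99, 107 and 133 in GF PAT mice. Ccr2 was 0.60 ± 0.19, adjusted p = 0.0308 between SPF control and GF control mice, and -0.57 ± 0.19, adjusted p = 0.0559 between SPF PAT and SPF control mice. Among SPF PAT mice it hardly varied, with an SD of 0.0227 on the log2 scale. With median centring neither Ccl2 (0.85, adjusted p = 0.0887) nor Ccr2 (0.16, adjusted p = 0.671) was called between SPF control and GF control mice. The Ccr2 call also ended with Tukey HSD, with only the 2 groups and without SPF control mouse 8 or 2 or GF control mouse 38 or 37 (0.41 to 0.63), and the Ccl2 call with Tukey HSD (adjusted p = 0.0633) and quantile normalization (adjusted p = 0.226).

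Ccl4, an attractant of monocytes and T cells, had counts of 25.2, 29.6 and 38.3 in SPF control mice, 18.8, 23.6 and 22.8 in SPF PAT mice, 15.2, 15.7 and 7.98 in GF control mice and 13.05, 18.9 and 16.1 in GF PAT mice. All SPF control mice were above all GF control mice (1.30 ± 0.27, adjusted p = 0.00481), whereas SPF PAT and SPF control mice differed by -0.50 ± 0.27, adjusted p = 0.198. With median centring the call between SPF control and GF control mice was lost (0.86, adjusted p = 0.0719), as with quantile normalization (0.72, adjusted p = 0.143). The other 6 members of the role, Ccl3, Ccl6, Ccl7, Ccl9, Ccl12 and Ccl24, passed no comparison. Their differences between SPF control and GF control mice ran from -0.28 for Ccl24 to 0.44 for Ccl12, and between SPF PAT and SPF control mice from -0.44 for Ccl12 to 0.36 for Ccl6. The 6 measured macrophage and dendritic cell markers summed to 1718 to 2486 in SPF control mice and 1428 to 1867 in GF control mice, ranges that overlap. Of the 6, 1 was higher and 1 lower in SPF control mice, against 19.4% and 22.7% of all genes.

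Ccl11, or eotaxin, recruits eosinophils through CCR3 and helps to keep them in the gut. Its counts were 351, 298 and 474 in SPF control mice, 594, 751 and 603 in SPF PAT mice, 618, 599 and 764 in GF control mice and 563, 656 and 742 in GF PAT mice. The SPF control mice were the 3 lowest of the 12. Ccl11 was 1.79-fold lower in SPF control than GF control mice (-0.84 ± 0.20, adjusted p = 0.00739) and 1.76-fold higher in SPF PAT than SPF control mice (0.81 ± 0.20, adjusted p = 0.0163). The latter call ended with Tukey HSD (adjusted p = 0.0837), with only the 2 groups (adjusted p = 0.0651) and without SPF PAT mouse 26 or SPF control mouse 7 or 2 (0.66 to 0.78, adjusted p up to 0.0609). Its receptor Ccr3 ranged from 16.0 to 34.2 and differed by -0.25 ± 0.26, adjusted p = 0.45 and 0.25 ± 0.26, adjusted p = 0.464 in these comparisons. Ccl26 was at or below 3 counts in every mouse. Ccl11 lies between Ccl7 and Ccl12 in a run of genes on chromosome 11 that begins with Ccl2 and ends with Ccl8. Within this run Ccl2 and Ccl8 were higher and Ccl11 was lower in SPF control than GF control mice, and Ccl7 and Ccl12 were not called. The eosinophil markers of the marker list were not analysed here.

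Cx3cl1 and the atypical receptor Ccrl1 also had their lowest values in SPF control mice. Cx3cl1, or fractalkine, is a membrane-bound ligand of epithelium and endothelium. Its counts were 888, 867 and 1083 in SPF control mice, 1159.6, 1437 and 1449 in SPF PAT mice, 1312, 1549 and 1262 in GF control mice and 1113, 1126 and 1170.0 in GF PAT mice. It was lower in SPF control than GF control mice (-0.54 ± 0.14, adjusted p = 0.0113) and higher in SPF PAT than SPF control mice (0.51 ± 0.14, adjusted p = 0.0243). The latter call ended with Tukey HSD (adjusted p = 0.0837), with only the 2 groups (adjusted p = 0.095) and without SPF PAT mouse 27 or 26 or SPF control mouse 7 or 2 (0.45 to 0.47, adjusted p up to 0.0957). Its neighbour on chromosome 8 is Ccl22, which differed in the opposite direction in both comparisons. Ccrl1 is an older name of Ackr4, a receptor that removes CCL19, CCL21 and CCL25 without signalling. Its counts were 178, 206 and 243 in SPF control mice, 257, 372 and 406 in SPF PAT mice, 289, 482 and 515 in GF control mice and 392, 354 and 492 in GF PAT mice. Ccrl1 was 2-fold lower in SPF control than GF control mice (-1.003 ± 0.26, adjusted p = 0.012), a call that ended with Tukey HSD (adjusted p = 0.0796), and its difference between SPF PAT and SPF control mice was 0.71 ± 0.26, adjusted p = 0.0681. Ccrl2, a chemerin-binding receptor, had counts of 74.7, 73.6 and 67.4 in SPF control mice, 64.9, 55.5 and 74.5 in SPF PAT mice, 61.98, 54.2 and 50.9 in GF control mice and 57.8, 60.7 and 61.1 in GF PAT mice. Its difference of 0.37 ± 0.13, adjusted p = 0.0435 between SPF control and GF control mice turned to -0.069 with median centring and -0.18 with quantile normalization.

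The neutrophil attractants and the receptor Cxcr1 were near the lower end of the assay, and the receptor Cxcr2 was left out by the rule. Cxcl1, Cxcl3, Cxcl15 and Cxcr1 had mean normalized counts under 20. Cxcl15 had 1 to 12 counts, with normalized counts of 5.03, 2.4 and 0.832 in SPF control mice, 6.58, 8.26 and 7.21 in SPF PAT mice, 12.2, 6.02 and 6.98 in GF control mice and 6.52, 8.95 and 6.43 in GF PAT mice. It was lower in SPF control than GF control mice (-1.89 ± 0.54, adjusted p = 0.019) and higher in SPF PAT than SPF control mice (1.76 ± 0.54, adjusted p = 0.0402). The latter call ended under 10 alternatives, Tukey HSD, only the 2 groups compared, and without SPF PAT mouse 27 or 26, SPF control mouse 8 or 7, any GF PAT mouse or GF control mouse 39, and its estimate ran from 1.07, without SPF control mouse 8, to 2.37. The call against GF control mice ended under 3, Tukey HSD, only the 2 groups and without GF control mouse 37 (-1.59, adjusted p = 0.0587). Summed over 3 mice it had 10 counts in SPF control mice, 20 in SPF PAT mice and 24 in GF control mice. The ratio to SPF control mice was 2.66 for SPF PAT mice (95% exact binomial interval 1.19 to 6.36, counting error only) and 3.10 for GF control mice (1.43 to 7.27). Cxcl1 had counts of 22.7, 14.4 and 21.6 in SPF control mice, 9.4, 11.8 and 4.8 in SPF PAT mice, 7.11, 9.64 and 11.97 in GF control mice and 1.86, 12.9 and 17.2 in GF PAT mice. The SPF control mice were above the GF control and SPF PAT mice without overlap, but neither difference was called (1.03 ± 0.72, adjusted p = 0.265 and -1.24 ± 0.72, adjusted p = 0.221). The 4 measured neutrophil markers summed to 68.0 to 117 in SPF control mice, 30.0 to 49.6 in SPF PAT mice, 22.4 to 37.3 in GF control mice and 34.5 to 59.0 in GF PAT mice, and 1 value among them was 0, in a GF control mouse.

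Cxcr5 and Cxcr4 varied more within groups than the other members, and are described although they fall outside the rule for named genes. Cxcr5, the receptor that brings B cells into follicles, had counts of 185, 227 and 8.32 in SPF control mice, 173, 4.72 and 4.8 in SPF PAT mice, 91.5, 19.3 and 4.99 in GF control mice and 144, 116 and 46.1 in GF PAT mice. The groups overlapped throughout. The pooled SD within groups was 2.31 log2 units for Cxcr5 and 1.16 for Cxcr4, the receptor of CXCL12. These were the highest of the 36 members, whose median was 0.352. Cxcr4 had counts of 544, 657 and 124 in SPF control mice, 521, 80.3 and 88.9 in SPF PAT mice, 268, 73.5 and 109.7 in GF control mice and 445, 367 and 186 in GF PAT mice. No difference of either gene was called, and the estimates for SPF control against GF control mice were 1.77 ± 1.71, adjusted p = 0.412 for Cxcr5 and 1.45 ± 0.87, adjusted p = 0.198 for Cxcr4.

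The 4 B cell markers Ms4a1, Cd79a, Cd79b and Cd22 summed to 336 in SPF control mouse 8 but to 3515 and 4082 in mice 2 and 7. In SPF PAT mice the sum was 139 and 179 in mice 27 and 26 and 3751 in mouse 21. GF control mice had 98.7, 296 and 2063, and GF PAT mice 929.8, 2009 and 3505. The 6 mice with the highest sums were also the 6 with the highest Cxcr5 and the highest Cxcr4. With the mean of these markers as a covariate, chosen after seeing the data, the Cxcr5 difference became -0.39 between SPF control and GF control mice and 0.055 between SPF PAT and SPF control mice. Because Cxcr5 follows these markers from mouse to mouse, a smaller difference with this covariate follows from that alone. The part of B cell content was not tested. Cxcl12, the ligand of CXCR4, ranged from 858 to 1262 and was called in no comparison.

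**Figure D3:**
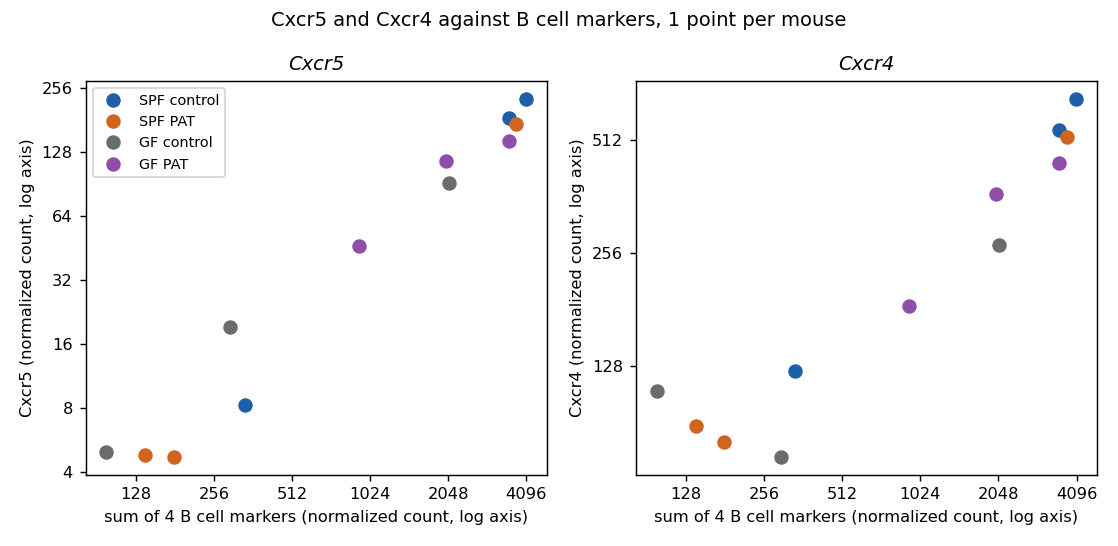
Normalized counts of Cxcr5 (left) and Cxcr4 (right) against the summed normalized count of 4 B cell markers, both axes on a log scale, 1 point per mouse coloured by group. The mouse with 227 counts of Cxcr5 has a marker sum of 4082, and each colour except that of GF PAT mice spans low and high sums.

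In germ-free mice the tylosin course gave no call among the 36 members, as over all genes (0.0% called). At an unadjusted p under 0.05 there was 1 member, and Tukey HSD and voom also gave 0. That member was Cxcl10, whose 3 GF PAT mice lay above the 3 GF control mice (0.66 ± 0.17, adjusted p = 0.411). The groups did not overlap for 3 members, Cxcl10, Ccl25 and Cx3cl1, and for 12.1% of all genes. The median difference over the members was -0.011. For 20 members the 95% interval of the difference lay within 1 log2 unit of 0, among them Ccl25 (-0.52 to 0.086), Ccr9 (-0.20 to 0.71) and Ccl8 (-0.29 to 0.92). For others it was wide, as for Cxcr1 (-1.37 to 1.22) and Cxcr5 (-1.68 to 5.99).

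**Figure D4:**
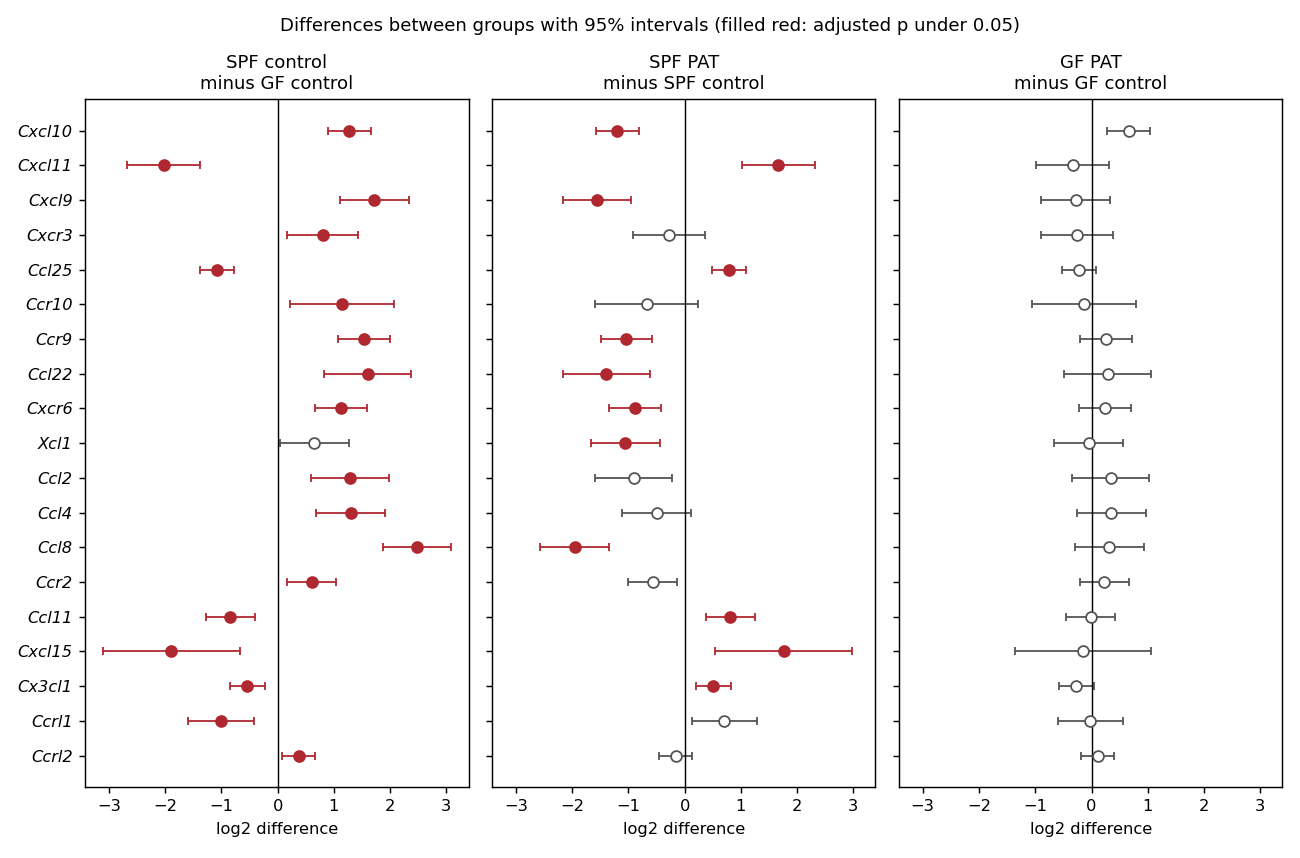
Log2 difference (x axis) with its 95% interval for the 19 members called in any comparison, by role, in the comparisons of SPF control with GF control, SPF PAT with SPF control and GF PAT with GF control mice. Filled red points have an adjusted p under 0.05, and the right panel has none.

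SPF PAT and GF PAT mice differ in colonization and in colony of origin after the same drug. Between them 0 members were called, against 1.44% of all genes, and 4 had an unadjusted p under 0.05. Tukey HSD and voom also called 0 members. The 4 were Cxcl10 (-0.58 ± 0.17, adjusted p = 0.164), Ccl6 (0.52 ± 0.17, adjusted p = 0.234), Cxcr3 (0.78 ± 0.28, adjusted p = 0.308) and Ccl3 (-0.63 ± 0.24, adjusted p = 0.355). The mice did not overlap for 4 members, namely Cxcl10, Ccl6, Cxcr3 and Ccr9, and for 13.7% of all genes. The difference of Ccl8, 2.47 between the control groups, was 0.20 here, with a 95% interval of -0.41 to 0.81. That of Ccl25 was -0.073 (-0.38 to 0.23), that of Cxcl11 -0.033 (-0.68 to 0.62) and that of Ccr9 0.24 (-0.21 to 0.70). The intervals of 20 members lay within 1 log2 unit of 0.

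The PAT effect in SPF mice was then set against that in GF mice, as the difference between the 2 differences. It was called for 9 members, against 17.1% of all genes. It was above 0 for 3 of them (9.89% of all genes) and below 0 for 6 (7.19% of all genes). With median centring 4 were above and 2 below, and with quantile normalization 3 above and 1 below. The members were the ligands Ccl8, Ccl22, Ccl25, Cx3cl1, Cxcl9, Cxcl10 and Cxcl11 and the receptors Ccr9 and Cxcr6. The largest of these was Ccl8 (-2.27 ± 0.39, adjusted p = 0.00972), followed by Cxcl11 (1.99 ± 0.41, adjusted p = 0.0153) and Cxcl10 (-1.85 ± 0.24, adjusted p = 0.00467). For Cxcl10 the PAT differences had opposite signs, -1.20 in SPF and 0.66 in GF mice. For Ccl8 they were -1.96 and 0.31, and for Ccl25 0.79 and -0.22. The count fell to 4 without GF PAT mouse 41 and to 5 without SPF PAT mouse 27 or 26, SPF control mouse 7, GF PAT mouse 42 or GF control mouse 38.

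Of the 8 chemokine system genes that the rule left out, 2 were called between SPF control and GF control mice, against 42.1% of all genes. Between SPF PAT and SPF control mice 2 were called, against 26.3% of all genes. In each case these were Ccl5 and Ccl20, higher in SPF control mice. The signalling genes listed downstream of the receptors had 14 measured members of 36. Of the 14, 1 was higher (Jak3) and 10 were lower in SPF control than GF control mice, with a median difference of -0.62. Over all genes 19.4% were higher and 22.7% lower. Between SPF PAT and SPF control mice 7 of the 14 were higher and none was lower, against 14.0% and 12.2% of all genes. Between GF PAT and GF control mice none was called. The 10 that were lower in SPF control mice included the kinases Src (-0.92, adjusted p = 0.00297) and Jak2 (-0.90, adjusted p = 0.00184) and the NF-kappaB subunits Nfkb1 (-0.61, adjusted p = 0.0017) and Rela (-0.52, adjusted p = 0.0129).

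Of the 36 members, 17 were called in no comparison. Of these, 8 had a mean normalized count under 20, and the ninth member with such a mean, Cxcl15, was called. The smallest spread within groups was that of Ccrl2, with a pooled SD of 0.137 log2 units, followed by Cxcl12 (0.14), Ccl25 (0.145) and Cx3cl1 (0.15). Among the 19 called members the widest was Cxcl15 (0.723), and Ccr10 (0.545) was next. The minimum absolute difference of 1 was applied to counts of members only, not to single members. Of 39 called differences of single members, 16 stayed past the threshold under every other alternative run. They were the 3 of Ccl8, Ccl25 and Cxcl11, the 2 of Cxcl9 that do not involve GF PAT mice, and those of Ccl11, Ccl22, Ccr9, Cx3cl1 and Cxcr6 between SPF control and GF control mice.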

How the data were processed

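Ileal RNA of 12 mice, 3 per group by the labels' group codes, was assayed on a mouse immunology panel (NanoString nCounter GX). The authors normalized counts using DESeq2, whose version is not given in the sources used here, and deposited log2 normalized counts. No reads were aligned. Recovered counts lay within 0.01 of whole numbers, and a count of 0 was written as 0. The 28 entries for reference genes and control probes hold no value, so background from negative controls was not analysed here. The labels name TRIzol with a column cleanup and the methods another kit. All but 1 member had current RefSeq symbols.

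Groups were compared with limma 3.58.1 (R 4.3.3, statmod 1.5.0), with 4 group means, no covariate and no filter. P-values were adjusted over 556 genes by the Benjamini-Hochberg method, threshold 0.05, per comparison. The steps were tested on simulated data. The labels do not say which litter a mouse came from, so p-values measure the spread between these mice. By the methods, dams and their litters were assigned to groups together, and weaned litters were kept apart by sex and treatment group. Litter and cage can therefore not be told apart from treatment here. Values in each mouse were given for members called in any of 5 comparisons and for Ccl25, Ccr9, Ccr10 and the CXCR3 axis, and Cxcr4, Cxcr5, Cxcl1 and non-members were named after their values were seen. A few genes, 1 of them a member, are not reported here and were left out of the counts, lists and marker sums, but stayed in the fit. Members and lists were chosen with earlier results of these data known. Alternatives were Tukey HSD as in the methods, an intensity trend, robust variance, a minimum mean count of 20, median centring, quantile normalization, log2 of the normalized count plus 1, voom on recovered counts, only the 2 groups compared, each mouse left out and, chosen after seeing the data, a B cell covariate. For the counts of members only, a minimum absolute difference of 1 was also applied. The Tukey HSD setting used that test for comparisons of 2 groups only. In it, the difference between PAT effects, which spans 4 groups, was tested with an ordinary t test.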

Additional observations from a re-analysis of the deposited data

Results flagged for a closer look

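For 9 members, limma's test of the difference between the PAT effects separated SPF from GF mice. On the log2 scale the difference of effects was -2.27 for Ccl8, -1.85 for Cxcl10, -1.68 for Ccl22, -1.29 for Ccr9, -1.28 for Cxcl9 and -1.12 for Cxcr6. It was 1.99 for Cxcl11, 1.01 for Ccl25 and 0.78 for Cx3cl1. Those of Ccl8, Ccl25 and Cxcl11 stayed past the threshold under every alternative run. That of Cxcl9, with an adjusted p of 0.0493, was lost under 16 alternatives, that of Ccl22 under 14, that of Cxcr6 under 10, that of Cx3cl1 under 8 and that of Ccr9 under 4, namely median centring, quantile normalization, the B cell covariate and the setting without GF PAT mouse 41. That of Cxcl10 was lost with quantile normalization (adjusted p = 0.092).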

How the results depend on the processing

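For SPF control against GF control mice 18 members were called, and 11 with Tukey HSD, 11 with quantile normalization and 14 to 19 with a mouse left out. For SPF PAT against SPF control mice there were 12, and 6 with Tukey HSD and 8 to 15 with a mouse left out, where 8 came without SPF control mouse 2 or 7. The difference between PAT effects was called for 9, for 4 with quantile normalization, for 5 with the B cell covariate and for 4 to 13 with a mouse left out, where 13 came without SPF PAT mouse 21. The comparisons within GF mice and within PAT mice gave 0 members under every alternative run. The higher and lower splits with median centring and quantile normalization are given with the counts above. Calls over all genes under these alternatives are not given here or above. A change in the count of members under an alternative can therefore not be read as particular to the members. Of 847 alternative values of the 39 called member differences, 696 kept direction and call, 149 kept direction only, and 2 reversed. The 2 were Ccrl2 between SPF control and GF control mice, at -0.069 with median centring and -0.18 with quantile normalization. With the B cell covariate, Cxcr5, not called, changed sign to -0.39 in that comparison and to 0.055 for SPF PAT against SPF control mice. Why settings changed a call was not tested. No paired analysis was possible because the labels give no shared replicate numbers. The median gene shifted by up to 0.55 with centring. With 3 mice a group and counts from 0, small differences of low members were not detectable.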
